A study of Mus musculus with 2 samples.

Results

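Distal regions with many footprints were described in DNase-seq of hippocampus from male B6CASTF1/J mice aged 10 days. The tissue label of both samples reads "layer of hippocampus" and does not name the layer. B6CASTF1/J animals are first-generation hybrids of C57BL/6J and CAST/EiJ, and their reads were placed on the reference mm10, so the 2 parental alleles were not told apart. The only group held 2 biological replicates, each from tissue described as coming from 3 males; both carry 1 donor label, so the spread between them covers these 2 samples alone and may be partly technical. There was no treated or mutant group, and hippocampus holds many cell types whose regions are mixed in each library. A region was a member when it was listed in replicate 1, overlapped a listed region of replicate 2, lay on chromosomes 1 to 19 more than 1000 bp from every GENCODE transcript start, and overlapped 5 or more footprints in each replicate. These conditions held for 1095 of 26224 shared distal regions. The other 25129 shared distal regions served as the comparison, and 353 of them held no footprint in either library.

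DNase I cuts DNA that is not wrapped in nucleosomes, so a cluster of cuts marks an accessible region such as an enhancer, an insulator or a promoter. A protein bound within such a region shields its contact bases, which leaves a short stretch with fewer cuts than its surroundings, called a footprint. Enhancers of the developing brain are bound by several factors side by side, among them basic helix-loop-helix proteins such as NEUROD, nuclear factor I and activity-dependent factors such as CREB, EGR and AP-1. CTCF, the insulator protein that anchors chromatin loops, is known for a long and deep footprint. Factors that stay on DNA only briefly can leave no footprint, and the sequence preference of DNase I itself shapes short ones.

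Sequences of 7 members are shown to make the layout of footprints visible. Each is the plus strand of the reference GRCm38 (mm10), with capitals for bases inside a footprint of both libraries and lower case for all others. They were picked by rank of footprint count among members of at most 300 bp outside exons, 1 for each of several factors whose motif lay wholly inside a footprint of both libraries. No member qualified for the full nuclear factor I site or for MEF2.

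CTCF, chr15:100838865-100839140, between genes, 24511 bp from the start of Slc4a8: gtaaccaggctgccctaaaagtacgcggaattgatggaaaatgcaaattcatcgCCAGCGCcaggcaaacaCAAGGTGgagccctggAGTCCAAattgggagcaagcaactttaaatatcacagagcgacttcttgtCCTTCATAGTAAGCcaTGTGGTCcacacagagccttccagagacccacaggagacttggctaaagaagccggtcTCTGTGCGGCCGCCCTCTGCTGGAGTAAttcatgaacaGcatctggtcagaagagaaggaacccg
NEUROD-type E-box, chr11:113990641-113990860, intron of Sdk2: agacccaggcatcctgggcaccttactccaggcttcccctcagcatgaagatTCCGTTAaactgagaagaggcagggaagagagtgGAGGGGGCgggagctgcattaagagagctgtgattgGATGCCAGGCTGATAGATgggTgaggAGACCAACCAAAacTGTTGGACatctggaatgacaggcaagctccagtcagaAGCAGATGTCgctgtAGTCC
RFX, chr8:86389981-86390240, between genes, 144507 bp from the start of Abcc12: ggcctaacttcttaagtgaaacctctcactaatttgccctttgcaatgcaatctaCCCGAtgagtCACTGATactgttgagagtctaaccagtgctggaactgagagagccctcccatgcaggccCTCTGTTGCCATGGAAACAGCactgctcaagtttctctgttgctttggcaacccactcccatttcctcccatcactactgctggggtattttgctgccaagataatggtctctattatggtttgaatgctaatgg
CRE, chr19:53314221-53314440, intron of Mxi1: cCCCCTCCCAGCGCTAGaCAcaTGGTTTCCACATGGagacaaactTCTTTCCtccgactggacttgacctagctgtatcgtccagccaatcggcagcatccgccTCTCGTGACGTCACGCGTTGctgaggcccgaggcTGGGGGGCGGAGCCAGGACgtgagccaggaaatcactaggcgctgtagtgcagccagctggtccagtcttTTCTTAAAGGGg
AP-1, chr7:58399241-58399400, between genes, 256766 bp from the start of Atp10a: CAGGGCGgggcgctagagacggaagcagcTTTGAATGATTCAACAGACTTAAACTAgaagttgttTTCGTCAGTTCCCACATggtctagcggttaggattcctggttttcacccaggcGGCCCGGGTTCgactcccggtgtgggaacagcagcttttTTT
EGR, chr8:70865661-70865960, between genes, 2403 bp from the start of Kcnn1: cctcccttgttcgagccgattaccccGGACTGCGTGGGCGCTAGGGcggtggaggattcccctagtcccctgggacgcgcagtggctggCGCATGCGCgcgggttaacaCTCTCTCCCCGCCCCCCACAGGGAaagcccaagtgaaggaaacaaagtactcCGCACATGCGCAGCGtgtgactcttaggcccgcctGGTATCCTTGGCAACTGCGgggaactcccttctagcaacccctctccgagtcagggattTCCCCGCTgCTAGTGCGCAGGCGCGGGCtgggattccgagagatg
Peg3 intron, chr7:6727411-6727710, the 300 bp of a 640-bp member with most footprint bases, chosen after its values were seen: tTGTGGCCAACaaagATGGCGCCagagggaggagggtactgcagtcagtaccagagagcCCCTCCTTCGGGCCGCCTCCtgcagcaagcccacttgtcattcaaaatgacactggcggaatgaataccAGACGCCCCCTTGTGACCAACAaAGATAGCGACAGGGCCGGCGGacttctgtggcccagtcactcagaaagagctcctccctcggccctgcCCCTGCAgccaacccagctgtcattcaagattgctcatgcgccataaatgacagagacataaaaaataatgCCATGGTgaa

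In the first sequence the CTCF match, read as CGCCCTCTGCTGG at bases 222 to 234, sat inside the longest run of capitals, and several 7-base runs lay well away from it. In the intron of Sdk2, which encodes a synaptic adhesion molecule, the NEUROD-type E-box CAGATG at bases 203 to 208 was inside a footprint of both libraries. The region in Mxi1, the gene of a MYC antagonist, carried the cyclic AMP response element TGACGTCA at bases 110 to 117 in the middle of 1 footprint, with 5 more around it in replicate 2 and 6 more in replicate 1.

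The values that chose the members are described first and support no comparison. At least 5 footprints were found in 2410 shared distal regions in replicate 1 (9.19%), in 3765 in replicate 2 (14.4%) and in 1095 in both (4.18%). The median member held 5 footprints in replicate 1 and 6 in replicate 2, with maxima of 15 and 24. The counts were equal in 460 members (42.0%) and within 1 footprint of each other in 880 (80.4%). Replicate 1 had more footprints in 265 members and replicate 2 in 370.

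Most members lay just inside the threshold. The smaller of the 2 counts was 5 in 786 members, whose median width was 220 bp, with median heights of 1.80 in replicate 1 and 2.20 in replicate 2. Height is the authors' signal per region, on a scale set per library, so groups were compared by height only within a library. Just outside the threshold, 2614 regions had a smaller count of 4, a median width of 200 bp and median heights of 1.71 and 2.22. Only 309 members had 6 or more footprints in both libraries, 43 had 8 or more and 9 had 10 or more. Another 1315 regions reached 5 in replicate 1 alone and 2670 in replicate 2 alone.

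**Figure D1:**
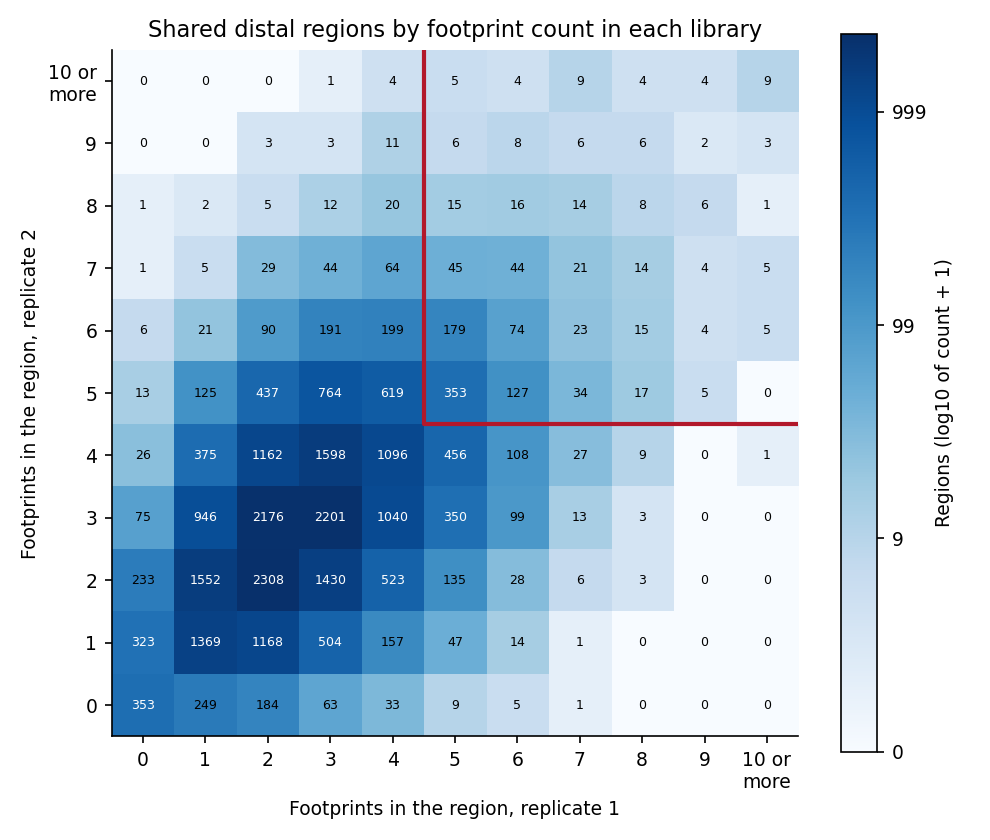
Number of shared distal regions at each pair of footprint counts, replicate 1 on the x axis and replicate 2 on the y axis, with colour on a log10(count + 1) scale and the number in each cell. The red line encloses the 1095 members with 5 or more in both libraries; the cell at 5 in both holds 353 of them.

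The 10 members with most footprints are ranked here by the count that chose them. The first was in the exon of Fzd8, a Wnt receptor, with 15 footprints in replicate 1 and 24 in replicate 2 over 1260 bp and heights of 1.33 and 2.20. The second was in an intron of Peg3, an imprinted gene of a zinc-finger protein, with 14 and 15 footprints over 640 bp and heights of 2.63 and 2.91. Both libraries placed the Peg3 footprints at much the same bases: 23.0% of the region was inside footprints of both, against 3.57% of the Fzd8 region.

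An intron of Arid5b, which encodes an AT-rich DNA-binding protein, held 12 footprints in each library over 940 bp. An intron of Maml3, a coactivator of Notch, held 11 in each over 940 bp. The gene C130071C03Rik, with its member 77800 bp from the start of the transcription factor gene Mef2c, had 13 and 11. The next members were 1 between genes nearest to Calcoco1 with 11 and 14, 1 nearest to Sox13, a SOX factor, with 10 and 14, and 1 nearest to Pcdh1, a protocadherin, with 10 and 12. The last 2 of the 10 were in an intron of S1pr2, a sphingosine 1-phosphate receptor, with 11 and 10, and between genes nearest to Tcf12, an E-protein, with 9 and 12. Heights of these 10 members ran between 0.779 and 2.63 in replicate 1 and between 0.918 and 3.36 in replicate 2, all below those of the 5 tallest members.

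Several of the 10 lay close to starts that GENCODE M21 does not carry. By RefSeq, the Fzd8 member was 325 bp and the Arid5b member 683 bp from a start. The Peg3 member was 898 bp and the C130071C03Rik member 953 bp from a start. Those nearest to Calcoco1 and Pcdh1 held a RefSeq start, of Cistr and of Gm30188.

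**Figure D2:**
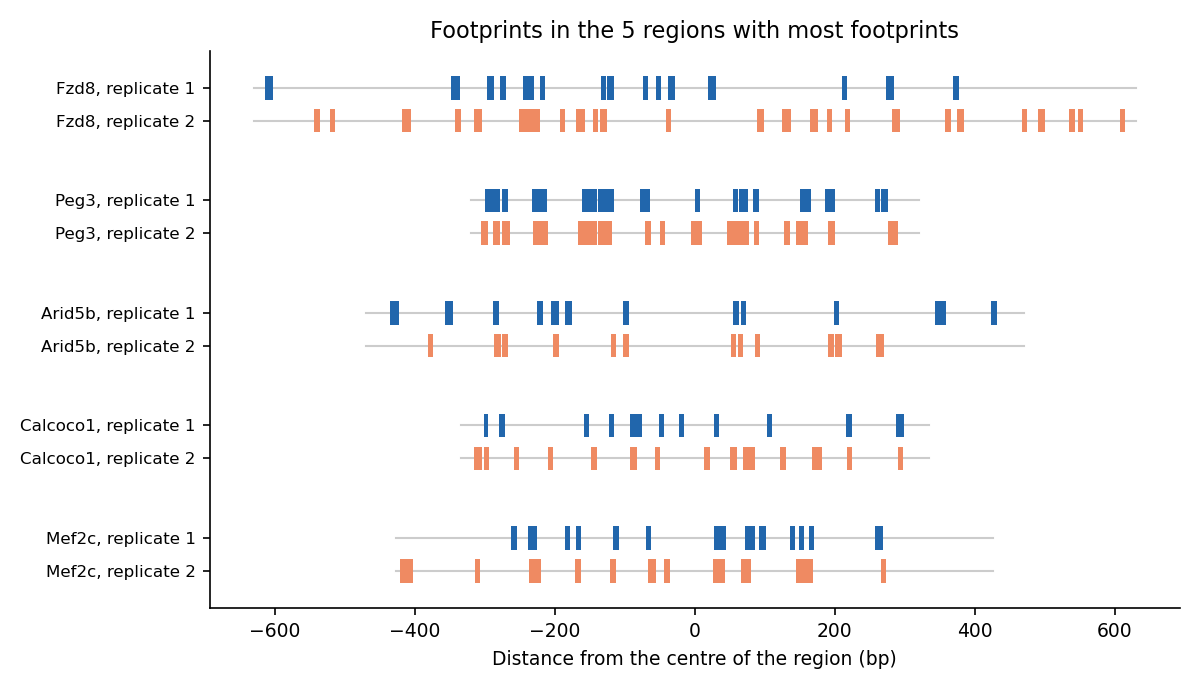
Footprints of the 5 members with most footprints, as blocks along the distance from the centre of the region (bp), blue for replicate 1 and orange for replicate 2 below it; the grey line is the region, named by its own or nearest protein-coding gene. Blocks of both libraries line up in the Peg3 member, with 14 and 15 footprints, more than in the Fzd8 member, with 15 and 24.

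By the average of both libraries' heights, the 5 tallest members were short and dense. A region in an intron of Gphn, the gene of gephyrin, a scaffold of inhibitory synapses, had heights of 8.96 in replicate 1 and 13.7 in replicate 2, with 6 and 5 footprints in 240 bp. Ptma, which encodes prothymosin alpha, had 2 such members, 1226 bp and 39026 bp from its start, the nearer at 9.80 in replicate 1 and 10.3 in replicate 2 and the farther at 8.03 and 9.96. A member nearest to Zfp239, a zinc-finger gene, reached 8.36 and 10.5 and held a RefSeq start, of Gm38882.

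An intron of Jarid2, a partner of Polycomb repressive complex 2, held 5 and 6 footprints in 140 bp, with heights of 6.68 and 11.2. Of its bases, 50.7% were inside footprints of both libraries. In replicate 1 alone several other members were taller than that in Jarid2, among them those in Mxi1, at 8.15, and C87436, at 8.13. This ranking therefore depends on the average. By the average of both heights, the lowest members were in introns of Tcf4, an E-protein gene linked to neuronal development. Their heights were 0.478 and 0.459 in 1 and 0.440 and 0.617 in the other. Others were nearest to Fign, a microtubule-severing enzyme, and Tmem167, and in an intron of Ptprm, a receptor phosphatase. In these 5 members at most 5.97% of bases were inside footprints of both libraries, although each library listed 5 to 8.

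The libraries differed most in a 711-bp member nearest to Commd3, with 6 footprints in replicate 1 and 17 in replicate 2. A member 20724 bp from Kiz, a centrosomal protein gene, had 7 and 17, and Fzd8 was next. A member nearest to Lmo1, a LIM-only regulator, had 7 and 14. The member nearest to Mfge8, which encodes a bridge for phagocytosis, went the other way with 14 and 8. Footprint counts therefore differed between replicates by up to 11, more than the margin by which most members passed the threshold.

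Members were wider and taller than other shared distal regions. Their median width was 260 bp, with a range of 130 to 1260 bp, against 180 bp in the others. The median height was 1.80 in members against 1.03 in the others in replicate 1, and 2.18 against 1.26 in replicate 2. The continuous stretch of bases with a listed false discovery rate of the cut rate, up to 0.05, was 540 bp at the median in members against 293 bp in the others in replicate 1, and 678 bp against 347 bp in replicate 2. A wider region has more room for footprints and a taller one more cuts, so none of these values is independent of the rule.

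The share of regions that were members climbed with width. It was 0.144% (14 of 9742) up to 160 bp, 2.87% (290 of 10096) at 161 to 200 bp and 6.50% (292 of 4491) at 201 to 260 bp. It was 18.2% (223 of 1223) at 261 to 340 bp, 36.7% (202 of 551) at 341 to 500 bp and 61.2% (74 of 121) above 500 bp. At equal width members were still taller: at 161 to 200 bp their median heights were 2.27 in replicate 1 and 3.09 in replicate 2, against 1.35 and 1.73 in the others. Above 500 bp they were 1.20 and 1.46 in members, against 0.848 and 1.03 in the others. Over 5 equal classes of height the share of members went up at every step, 0.664%, 1.41%, 2.91%, 5.17% and 10.6% in replicate 1.

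**Figure D3:**
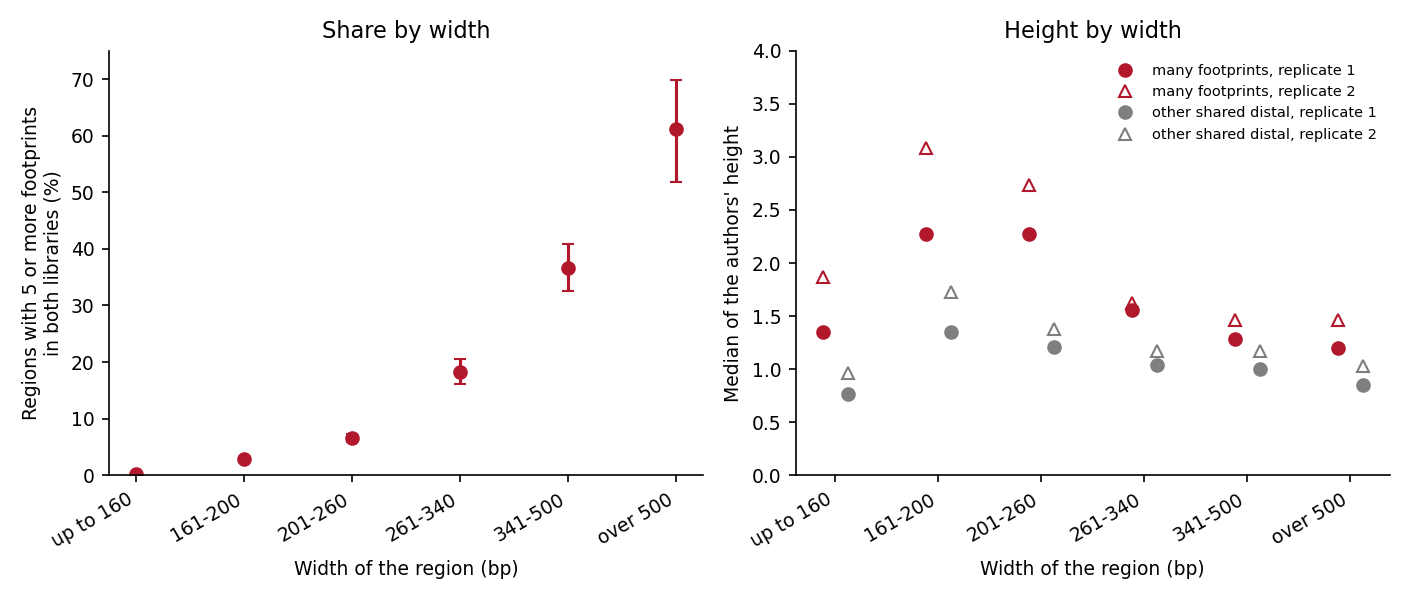
Left, share of shared distal regions that were members in 6 classes of width (bp), with exact binomial 95% intervals; it runs between 0.144% and 61.2%. Right, median of the authors' height in each class, red for members and grey for other shared distal regions, filled for replicate 1 and open for replicate 2; members lie above the others of their library in every class.

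The lengths and spacing of footprints are given as a description, since the rule asked for many footprints in 1 region and so favours close ones and more cover. The 1095 members held 6360 footprints in replicate 1 and 6545 in replicate 2, with median lengths of 10 and 11 bp, against 11 and 12 bp for the 62209 and 70469 footprints of other regions. Footprints of 7 bp, the shortest listed, made up 26.6% and 23.0% in members, against 21.9% and 19.8% in the others. Those of 21 bp or more made up 14.7% and 18% in members, against 25.4% and 28.8%. The median distance between centres of neighbouring footprints was 38.5 and 39.5 bp in members, against 50.5 and 50 bp. Footprints covered 25.1% of member bases in replicate 1 and 27.5% in replicate 2, against 21.3% and 25.2% in the others.

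The libraries placed footprints of members about as alike as those of other regions. Of the 6360 footprints of replicate 1 in members, 72.4% overlapped a footprint of replicate 2 (exact 95% interval 71.3 to 73.5%), against 72.0% in other regions. The share went up with length: in members it was 52.7% for footprints of 7 bp, 62.2% for 8 to 9 bp, 76.4% for 10 to 14 bp, 92.4% for 15 to 20 bp and 98.9% for 21 bp or more. In other regions the shares of these lengths were 45.8%, 53.5%, 71.6%, 91.5% and 99.3%. With a reciprocal overlap of at least 50% the share was 51.3% in members and 53.1% in the others.

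Bases inside footprints of both libraries made up 17.1% of member bases and 15.9% of the bases of other regions. Of all bases inside a footprint of either library, 48.1% were shared in members and 51.8% in the others.

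By place in the genome, members were 38.5% intronic (422), 10.2% exonic (112) and 51.2% between genes (561). Other shared distal regions were 44.7% intronic, 7.82% exonic and 47.5% between genes. To allow for width, shares in the others were weighted to the lengths of the members; the differences below are in percentage points with a 95% normal interval for counting error, since regions are not replicates. The intronic share was lower in members by this measure, with a difference of -3.50 (-6.82 to -0.183), and the exonic difference was 1.20 (-0.877 to 3.28). Weighted to length and height together, the intronic difference was -0.152 (-3.73 to 3.42).

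Members were richer in GC and CpG. The median GC content was 55.5% in members against 52.3% in the others, and the ratio of observed to expected CpG was 0.351 against 0.250. Widths were not matched for these medians. Within each class of width both medians were still higher in members, by less in some. At 161 to 200 bp GC was 52.0% against 51.2%, and at 201 to 260 bp 56.9% against 53.75%. The CpG ratios there were 0.301 against 0.245 and 0.352 against 0.275. A CpG island-like composition, with at least 200 bp, at least 50% GC and a ratio of at least 0.6, was found in 221 members (20.2%, exact 95% interval 17.8 to 22.7%) and in 3.33% of other regions, 10.1% after weighting to the same lengths. The difference was 10.1 points (7.48 to 12.8), and 3.32 points (0.259 to 6.39) when height was matched too. By the smaller count, the median GC content was 54.6% at 5, 56.9% at 6, 59.4% at 7 and 59.2% at both 8 and 9. Below the threshold it was 53.5% at a count of 0, 52.0% at 3 and 52.8% at 4. The median width also differed between these classes, 220 bp at 5, 300 bp at 6 and 400 bp at 7, and was not matched. Soft-masked repeats made up 3.33% of bases at the median in members and 0% in other regions. The means went the other way, 6.42% in members against 8.21% in other regions, and widths were not matched for either. Over 50% of bases were masked in 4 members (0.365%) and in 2.43% of other regions, 0.747% at equal lengths, a difference of -0.382 points (-0.928 to 0.165).

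A RefSeq start lay within 1000 bp of 125 members (11.4%) and of 5.31% of other regions, a difference of 2.55 points at equal length (0.373 to 4.73) and of -0.625 points at equal length and height (-3.31 to 2.06). At equal length fewer members lay over 50 kb from any GENCODE start, 10.1% against 12.7% before weighting, with a difference of -2.24 (-4.34 to -0.140). This turned to 2.02 (-0.388 to 4.43) when height was matched.

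The 30 consensus motifs were searched on both strands, and 1 base could belong to matches of several motifs. At least 1 motif was found in all but 108 members (9.86%), while 22.5% of other regions, which are shorter, had none. After weighting to equal lengths, the interval of the difference lay above 0 for CTCF and EGR and below 0 for STAT, and the other 27 included 0. Widened by a Bonferroni correction over the 30 motifs, the CTCF interval alone stayed above 0. In other regions 90.6% of CTCF matches lay wholly inside footprints of both libraries, so a match adds to the count that chose the members. The CTCF difference is therefore not independent of the rule.

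CTCF matches were found in 174 members (15.9%, exact 95% interval 13.8 to 18.2%), against 10.0% of other regions of the same lengths, a difference of 5.89 points (3.60 to 8.18). Both the size and the direction of this difference rested on how the others were weighted. Unweighted, 16.8% of other regions held a match and the difference was -0.871 (-3.09 to 1.34); in the central 150 bp of each region it was -2.49 (-4.61 to -0.377); at equal length and height it was 1.77 (-0.978 to 4.51).

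The EGR site GCGTGGGCG, bound by the immediate early factor EGR1 and its relatives, was in 11 members (1.00%), against 0.242% of other regions of the same lengths, a difference of 0.763 points (0.0303 to 1.50). The cyclic AMP response element TGACGTCA was in 19 members (1.74%) against 0.971%, a difference of 0.764 (-0.234 to 1.76). STAT-type sites, TTCNNNGAA, were in 68 members (6.21%) against 7.96%, a difference of -1.75 (-3.51 to -0.00123). At equal length and height each of these intervals included 0.

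Motifs of neuronal factors were common in members, and their differences at equal lengths had intervals that included 0. The NEUROD-type E-box CAGATG was in 300 members (27.4%) against 28.6% at equal lengths, a difference of -1.22 (-4.31 to 1.87). The ASCL-type E-box CAGCTG was in 310 members (28.3%) against 29.7%, and the E-box CACCTG in 237 (21.6%) against 21.2%. The nuclear factor I arm TTGGCA, 1 side of its palindrome, was in 310 members (28.3%) against 30.3%, a difference of -1.94 (-5.06 to 1.18). The AP-1 site TGANTCA was in 90 members (8.22%) against 7.26%. REST, which silences neuronal genes outside neurons, and the liver factor HNF1 had a match in 0 of 1095 members, for which the exact 95% interval reaches 0.336%. In other regions REST was in 13 (0.0517%, 0.0110% at equal lengths) and HNF1 in 0, so no lack in members was detectable.

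Within members, matches differed widely in how often footprints covered them. Members were chosen for footprints in both libraries and had more of their bases in them, so the shares in the others are set beside them as a description. Of the 182 CTCF matches, 158 (86.8%, exact 95% interval 81.0 to 91.4%) lay wholly inside footprints of both libraries, against 90.6% of 4244 in other regions. NRF1 sites, GCGCATGCG, were covered in 17 of 25 (68.0%) against 48.3%, and EGR sites in 6 of 11 (54.5%) against 30.3%. The cyclic AMP response element was covered in 9 of 21 (42.9%, 21.8 to 66.0%) against 24.2%, and the SP and KLF site GGGGCGGGG in 22 of 66 (33.3%) against 22.2%.

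The E-box CACCTG was covered in 88 of 279 (31.5%) against 34.2%, and the nuclear factor I arm in 119 of 438 (27.2%, 23.1 to 31.6%) against 22.2%. The NEUROD-type E-box followed with 14.7% against 17.6% and the ASCL type with 13.0% against 12.6%. At the low end were AP-1 with 3 of 94 (3.19%) against 3.20%, and STAT with 0 of 69 against 4.41%. YY1 sites, AAGATGGCG, were covered in 2 of 13 in members (15.4%, 1.92 to 45.4%) and in 59.3% of 108 in other regions; 7 of the 13 lay in 3 members in Peg3, which count 2 of the sites in more than 1 member.

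**Figure D4:**
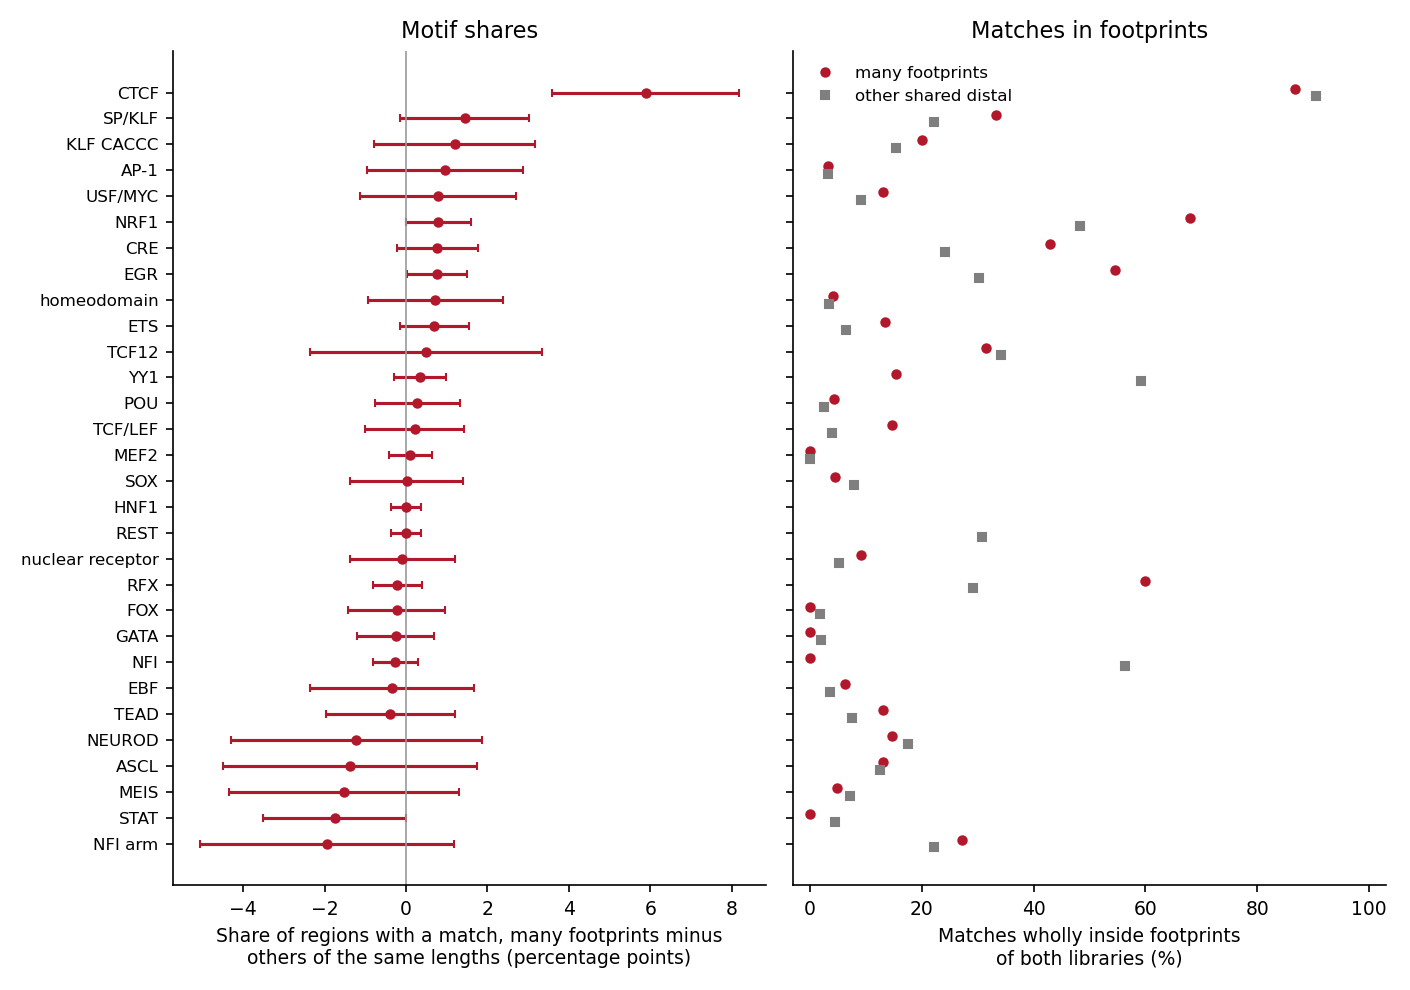
Left, share of members with a motif match minus the share of other shared distal regions of the same lengths (percentage points, 95% normal intervals for counting error), in order of the difference; CTCF stands highest at 5.89. Right, share of matches wholly inside footprints of both libraries (%), red circles for members and grey squares for others; CTCF reaches 86.8% in members, and motifs with no match have no point.

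Around CTCF matches footprints lay in 4 zones in members and in other regions alike. At the centre of the match 96.2% of member matches were inside a footprint in replicate 1 and 97.8% in replicate 2, against 97.7% and 99.1% in other regions. At 30 to 100 bp from the centre, footprints covered 26.0% and 31.4% of bases in members, against 11.9% and 19.5% in the others. This window holds 1 broad block on each side of the match; at 70 bp downstream, read along the CTCF motif, 51.6% and 64.3% of member matches were covered, against 34.9% and 52.7%. A narrower block lay outside the window, directly beside the match, and at 20 bp upstream it covered 75.3% and 76.4% in members, against 45.4% and 50.5%. Members were chosen for more footprints, so the excess on the flanks is a description.

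The Peg3 member held 3 YY1 matches, which lay at bases 43 to 51, 465 to 473 and 584 to 592 of the 640-bp region, and none was wholly inside a footprint of either library. Each touched the edge of a footprint in replicate 1, and the first and second did so in replicate 2; in the printed sequence the first is at bases 13 to 21, with its last 6 bases in capitals. The longer runs of capitals, such as AGACGCCCCCTTGTGACCAACA, lay between the matches. This first intron is known in mouse for clustered YY1 sites and for imprinted DNA methylation, which marks 1 of the parental alleles; the alleles were not separated here. Peg3 had 3 members in all, 2 of which share bases, and the same 3 fall within 10 kb of Usp29, a ubiquitin protease gene of the same imprinted cluster.

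Transfer RNA genes also overlapped members. They carry their promoter inside the gene, as an A box and a B box bound by TFIIIC, with TFIIIB placed just upstream. RefSeq tRNA genes overlapped 20 members (1.83%) and 129 other regions (0.513%), a difference of 0.992 points at equal length (0.0888 to 1.89) and of -0.479 at equal length and height (-2.21 to 1.26). The 20 members held 21 tRNA genes of 10 amino-acid identities, on chromosomes 1, 3, 7, 11, 13, 14, 15, 17 and 19. Many tRNA genes have near-identical copies elsewhere, so reads over the gene itself may be misplaced, and these values are uncertain.

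The tallest of them were over n-TIaat17, a tRNA-Ile gene, with heights of 6.05 in replicate 1 and 7.98 in replicate 2, n-TPagg4, a tRNA-Pro gene, with 5.48 and 8.01, and n-TEttc7, a tRNA-Glu gene, with 3.97 and 5.20. The lowest height in replicate 1 was 0.999, over n-TIaat15, and that in replicate 2 was 1.02, over n-TKctt26. The n-TEttc7 gene, at bases 58399315 to 58399386 of chromosome 7, lies in the region printed above for AP-1, downstream of the AP-1 match. That match falls within the 60 bp upstream of the gene, a stretch covered to 52.1% in replicate 1 and 47.7% in replicate 2 over tRNA genes of members. Which protein left the footprint at the match was not tested.

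A B box was found in 20 of the 21 genes in members, wholly inside a footprint in 10 in replicate 1 and in 11 in replicate 2, and in both in 9. In other regions it was in footprints of both libraries in 71 of 125. An A box was found in 21 genes of members and was inside a footprint in 0 in replicate 1 and in 1 in replicate 2. The 60 bp upstream of the gene were covered to 52.1% in replicate 1 and 47.7% in replicate 2 in members, against 54.6% and 53.3% in the others. Downstream, in the 60 bp that begin 80 bp after the first base, cover was 11.9% and 15.3% in members, against 8.14% and 9.41%.

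**Figure D5:**
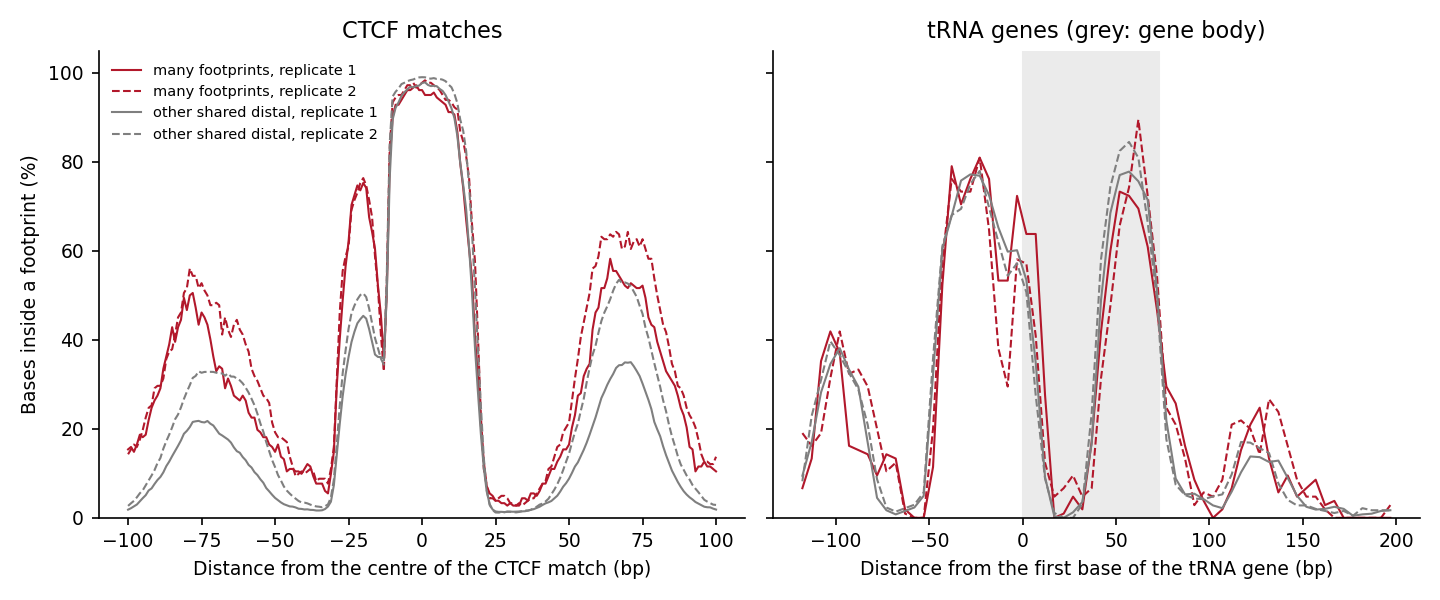
Share of matches or genes with the base inside a footprint (%), left by distance from the centre of a CTCF match (bp), right by distance from the first base of a tRNA gene (bp, gene body in grey). Red is members and grey other shared distal regions, solid for replicate 1 and dashed for replicate 2; at CTCF centres all 4 lines lie between 96.2% and 99.1%, and over 30 to 100 bp the members average above the others of their library.

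Enhancers tested in mouse embryos were also among the members. RefSeq carries elements from VISTA, a collection of reporter tests in transgenic embryos. Of these elements, 21 overlapped 23 members (2.10% of members) by at least 1 bp. Such elements also overlapped 171 other regions (0.680%). The difference at equal length was 0.517 points (-0.568 to 1.60). Activity in forebrain, midbrain, hindbrain or neural tube is recorded for 15 of the 21 elements with a member (71.4%) and for 84 of 138 with other regions only (60.9%). Forebrain activity is recorded for 8 of 21 (38.1%) against 34.8%, midbrain for 8 (38.1%) against 38.4%, hindbrain for 9 (42.9%) against 32.6% and neural tube for 9 (42.9%) against 18.8%. Outside the nervous system, heart activity is recorded for 4 of 21 against 29 of 138, and limb for 2 against 35. These differences between tissues were not tested.

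The forebrain enhancer mm1295, whose first member lies 72475 bp from Irf2bp2, overlapped 2 members. The taller had 7 footprints in each library and heights of 7.09 and 8.97, and the other 5 in each and heights of 2.26 and 2.20. The lower of the 2, at bases 126667741 to 126668040 of chromosome 8, lay mostly past the end of the element at base 126667756. The forebrain enhancer mm1548, 9342 bp from Bhlhe41, a circadian basic helix-loop-helix repressor, held a member of 5 footprints in each and heights of 5.59 and 7.89. An element in an intron of Gnao1, the gene of the neuronal G protein subunit alpha o, is recorded in forebrain, midbrain, hindbrain and neural tube, and its member had 8 and 6 footprints. A member 18290 bp from Fos, the activity-induced AP-1 gene, with heights of 4.71 and 5.52, lay in an element recorded in heart. The Sox13-nearest member with 10 and 14 footprints lay in an element recorded in blood vessels.

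Regions of protein-coding loci, taken as the gene and 10 kb on each side, gave 646 members of 16226 shared distal regions (3.98%), and 766 of 20807 genes (3.68%) had at least 1. A single member was found in 710 genes, 2 in 50 and 3 in 4 genes. Gm20388 had 7, but its annotation encloses 71 other genes. Csmd1, a large complement-control protein of neurons, had 4 over a 1663-kb locus, with heights between 0.823 and 1.48 in replicate 1 and between 1.21 and 1.69 in replicate 2. Myo1d, an unconventional myosin, and Apba2, an adaptor of the amyloid precursor protein, had 3 each. Arid5b, Shank1, a postsynaptic scaffold, and the overlapping genes Rap2b and B430305J03Rik had 2 each. The 2 in Arid5b share bases, and 1 of the 2 counted for Shank1 lay in an exon of its neighbour Clec11a. By RefSeq, 1 of the 2 in Rap2b held a start of Rap2b and the other lay 407 bp from a start of that gene. Genes with a member had longer loci, at a median of 59.95 kb against 37.6 kb over all genes.

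Gene lists were read against the 3.98% of all coding loci, with counts of members of shared distal regions and exact 95% intervals. Over all 20807 coding genes, 60.5% had a start within 1000 bp of a listed region in both libraries. For broad neuronal lists this held for 13 of 14 glutamatergic and 11 of 11 pan-neuronal genes. Among lists of hippocampal cells it held for 9 of 9 CA3, 8 of 12 dentate granule, 5 of 8 CA1, 7 of 18 interneuron and 3 of 8 Cajal-Retzius genes, and for 8 of 13 astrocyte, 7 of 13 oligodendrocyte and 2 of 13 microglia genes. Lists of other tissues had 1 of 13 hepatocyte and 2 of 12 muscle genes. A list of neural transcription factors, which holds NFI, SOX, TCF, MEF2, ID, ZBTB, MEIS and LMO genes, had 11 members of 125 distal regions (8.80%, 4.48 to 15.2%), in 8 of 25 genes. Axon guidance genes had 8 of 108 (7.41%, 3.25 to 14.1%) and genes of adhesion and synapse organisation 9 of 161 (5.59%, 2.59 to 10.3%). Only the interval of the neural transcription factor list lay above 3.98%, 1 of 20 lists. This held in 9 of 14 alternatives, each read against its own background, and was lost in the other 5. Among the 9, merging overlapping or touching footprints returned the same 8.80% and 3.98%, so it is no separate support. Counting replicate 1 alone gave 8.38% (4.66 to 13.7%) against 7.86%, at least 4 footprints 18.4% against 14.2%, which its interval included, and at least 7 footprints 0% against 0.382%. A start distance of 2500 bp gave 7.84% (3.45 to 14.9%) against 3.72%, and regions shared at a reciprocal overlap of 50% gave 8.51% (3.75 to 16.1%) against 4.30%.

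In that list Sox4, Tcf4 and Mef2c, a MADS-box factor gene, had 2 members each, while Nfix, Nfib, Nfic, Sox11 and Id2, which encodes an inhibitor of basic helix-loop-helix factors, had 1. The member in an intron of Nfib, a nuclear factor I gene, was the tallest with heights of 4.28 and 5.34, and those of Tcf4 were among the 5 lowest of all members. Of the members of Mef2c, 1 in an intron 2093 bp from a start held a CTCF match and had heights of 2.80 and 4.12. In the axon guidance list Plxna4, a semaphorin co-receptor, and Slit1, a repellent ligand, had 2 each, and Nrp2, Epha5, Ephb1 and Efna5 1 each; 4 of these 8 members held a CTCF match, seen after the values were known, against 15.9% of all members. In the adhesion list Shank2 had 2, and Dlg4, the gene of PSD-95, had the tallest member, with 8 footprints in each library and heights of 6.84 and 7.17. Ntm, a cell adhesion gene, had a member with 12 and 6 footprints, 157791 bp from the nearest GENCODE start of any gene.

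Activity-dependent genes had 3 members of 24 regions (12.5%, 2.66 to 32.4%), all between genes. Within 10 kb of Nr4a1, an orphan nuclear receptor gene, lay 1 with 8 and 6 footprints and heights of 3.72 and 3.65. The member within 10 kb of Egr3 had 6 in each and an EGR match, and that of Junb, an AP-1 subunit, had 5 and 6. The nearest GENCODE start of any gene was 7709, 2063 and 4323 bp away in this order. Glutamatergic genes had 2 of 24, near Slc17a7, the vesicular glutamate transporter, and in Camk2b, a synaptic kinase. Pan-neuronal genes had 3 of 35, in Rbfox3, Nefm and Celf4, and receptor genes 3 of 58, in Grik4, Grm5 and Grin2a.

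For dentate granule cells both members of 24 regions were in Pdzd2, and for CA3 pyramidal cells the only one of 24 was that in Grik4, with 5 and 10 footprints. Progenitor genes had 2 of 18, in Notch1, with 9 and 10 footprints over 714 bp, and near Nes, the gene of nestin. The oligodendrocyte list had 1 of 22, in Cspg4, and the microglia list 1 of 20, in Sall1, which neural progenitors also express. No member was found in 10 distal regions of CA1 genes, 15 of interneuron genes, 21 of Cajal-Retzius genes, 26 of astrocyte genes and 22 of endothelial and mural genes, nor in 6 of housekeeping, 6 of hepatocyte and 5 of muscle genes. With so few regions the upper limits were wide, 13.2% for the astrocyte list and 30.8% for the CA1 list, and all lie above the background, so no lack of members was detectable at these numbers.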

How the data were processed

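DNase-seq libraries of hippocampus of male B6CASTF1/J mice formed 1 group of 2 replicates, numbered as in the labels. Per the labels, mm10 is the assembly. What called the regions, at which threshold and from how many reads is not stated in the sources used here. Region lists were made per library and hold, for every region, the signal height as deposited. Its scaling is not stated, so members and other regions were compared by height only within a library. An average over the libraries served to pick the tallest and lowest members, to break ties in rank and to compare alternatives. In the footprint files all rows have 1 deposited p-value, 0.01, taken to be the authors' limit. Cut rates per base come with deposited false discovery rates (adjusted p-values) no greater than 0.05; of the 2 region lists per library the shorter one, in which all regions reach 0.001, was used.

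Members were found by the stated rule with overlaps of at least 1 bp; the members, gene lists and motifs were chosen with earlier results of these data known. Genes and starts were from GENCODE M21, and tRNA genes, VISTA elements and further starts from RefSeq on GRCm38. Overlapping regions were kept as listed: 6 pairs of members share bases. Shares carry exact binomial 95% intervals. Differences weight the other regions to the members' lengths in 19 bins, or to length and height in 5 equal classes, which left 1062 members. All intervals cover counting error only, since regions are not replicates. The named members were the 10 with most footprints, the 10 genes with most members, up to 3 genes per list, the 5 tallest, the 5 lowest and the 5 with the largest count difference; members of other kinds were named after their values were seen. Counting and weighting were tested on simulated data. Python 3.11.15, numpy 2.4.6, pandas 2.3.3, scipy 1.17.1 and matplotlib 3.10.9 were used. A further sequence picked for display is not reported here.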

Additional observations from a re-analysis of the deposited data

How the results depend on the processing

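The number of members, 1095 as reported, was 3709 with at least 4 footprints and 116 with at least 7. Counting 1 library alone (leaving out each replicate in turn) gave 2468 to 5450 members, shares of 8.18 to 12.3%, a median width of 220 bp, a median height of 1.50 to 1.58 in the library kept, 47.1 to 50.1% between genes, a median GC content of 53.6 to 54.0%, an observed over expected CpG of 0.296 to 0.305, 10.5 to 16.8% within 10 kb of another member, 3 to 12 differing motifs and 8.38 to 18.3% for the list of neural transcription factors.

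With at least 4 footprints the share of members was 14.1%, the width 220 bp, GC 53.5%, CpG ratio 0.303, neighbours within 10 kb 12%, footprint agreement 76.5%, differing motifs 12 and that list 18.4%. With at least 7 these were 0.442%, 441 bp, 59.6%, 0.482 and, for agreement, 67.0%, with 26.7% in introns, 19.8% in exons, 5% soft-masked, 1 differing motif, a CTCF difference of 2.38 points (-2.67 to 7.42) and 0% for that list. Counting only footprints wholly inside gave a share of 3.53%, agreement of 71.2% and 1 motif. The longer lists gave 2.68%, 280 bp, a median height of 1.71 averaged over the libraries (1.99 as reported), 8.46% within 10 kb, agreement of 67.9% and 9 motifs. Reciprocal overlap of 50% between regions gave 4.49%, 240 bp, agreement of 74.1% and 1 motif, and between footprints an agreement of 51.3%. A start distance of 500 bp gave 4.48%, 12.6% in exons, 48.0% between genes, GC 56.3%, CpG ratio 0.392 and 5 motifs, and 2500 bp gave 6.78%, 56.5%, 54.7% and 0.332 for the places and composition. Leaving out regions near RefSeq starts, added after seeing the data, gave 3.92% and 243.5 bp. Another member lay within 50 kb of 15.1%.

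The CTCF difference was -0.871 without weighting, -2.49 in the central 150 bp and 1.77 at equal length and height, where 0 motifs differed, against 20 without weighting and 9 in the central 150 bp. STAT turned to 1.03 without weighting. At equal length and height, added after seeing the data, the differences turned to 2.02 over 50 kb from a start, -0.625 near RefSeq starts and -0.479 over tRNA genes. The CpG island-like difference stayed above 0 in each alternative run. The cause of these changes was not tested. No paired analysis was possible because there was 1 group only. Depth is not known, so whether regions with fewer footprints lacked cuts to show them could not be measured.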

Other observations

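Hexamers were counted inside footprints of both libraries and outside footprints in the members, over 467 words seen at least 20 times inside. The greatest enrichment was for GCGCCA, with 124 copies inside and 57 outside, a ratio of 11.5 per word position. Words rich in G and C, several of them parts of a CTCF site, made up most of the first 15. The reverse complement of the nuclear factor I arm had 119 copies inside and 114 outside, a ratio of 5.51. A word that overlaps the cyclic AMP response element had 24 copies in each place, a ratio of 5.27. Hexamers of one site overlap each other, and the sequence preference of DNase I was not tested.

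Some members repeated 1 motif, which was seen after the values were known. A 260-bp member nearest to Gapt held 4 CTCF matches and no other listed motif, with 5 footprints in each library. A member nearest to Srl held 4 matches of NRF1, a regulator of mitochondrial and housekeeping genes, with 7 footprints in each library and 38.1% of its bases in footprints of both. A member in Gdf15, the gene of a stress-induced cytokine, held 3 NRF1 matches. Both C87436 and Ppp2r3d held a member with 2 cyclic AMP response elements, with heights of 8.13 and 9.72 in C87436 and of 3.86 and 5.29 in Ppp2r3d. A member 9911 bp from Slc38a2, a neutral amino acid transporter, held 4 EBF-type matches and reached 4.97 and 6.78.

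The densest member, also picked by its value, was in an exon of Kif26b, an atypical kinesin, with 10 and 9 footprints in 220 bp and 33.2% of its bases in footprints of both libraries, and it held none of the 30 motifs. Another member lay within 10 kb of 71 members (6.48%, exact 95% interval 5.10 to 8.11%) and within 100 kb of 257 (23.5%). By chromosome, the share of shared distal regions that were members was lowest on chromosome 10, at 2.62% (1.82 to 3.64%). It was highest on chromosome 17, at 5.33% (4.06 to 6.85%). Over all chromosomes used it was 4.18%, which the interval of chromosome 17 included and that of chromosome 10 did not. Both were picked as the extremes, the intervals were not widened for this choice, and differences between chromosomes were not tested.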
